A study of Mus musculus with 6 samples.

Results

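Hypothalamic neuropeptides are short signalling peptides cut from larger precursor proteins, and their genes are read at high level in small groups of neurons. They were followed here as 10 genes, chosen by name with earlier results of these data known: Avp, Oxt, Trh, Hcrt, Pmch, Nts, Agrp, Cartpt, Gal and Adcyap1. All 10 were found among the 78298 Ensembl identifiers of the deposited table, and 9 of them had a mean of at least 10 normalised counts and were tested among 17391 genes. Agrp was the exception. The 6 libraries were polyadenylated RNA from the whole left brain of male mice, 3 Top2b-low and 3 wild type (WT), 1 library per labelled sample. Top2b encodes topoisomerase IIβ, an enzyme that cuts and rejoins both DNA strands and is found in neurons that no longer divide. The Top2b-low group was homozygous (labelled Top2b-L (Homo), or Top2bL/L) for an allele made with CRISPR/Cas9 in which an auxin-inducible degron tag was placed at the 5′ end of the Top2b reading frame; the wild-type mice are labelled WT. No group received a drug or chemical, the age is stated as 10 weeks in the sample labels and 3.5 months in the series text, and the strain is not given in the sources used here. The library of Top2b-low replicate 3 is named N22.R1.2.dNdN while the names of replicates 1 and 2 end in Homo, and what dNdN stands for is not stated.

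Vasopressin (Avp) and oxytocin (Oxt) are made by the large, magnocellular neurons of the paraventricular and supraoptic nuclei, which release them into the blood in the posterior pituitary, and Avp is also made in the suprachiasmatic nucleus. Thyrotropin-releasing hormone (Trh) comes from the small neurons of the paraventricular nucleus, orexin (Hcrt) and melanin-concentrating hormone (Pmch) from separate neurons of the lateral hypothalamus, and agouti-related peptide (Agrp) from the arcuate nucleus. Neurotensin (Nts), CART (Cartpt), galanin (Gal) and PACAP (Adcyap1) are made in the hypothalamus and at many sites outside it, among them the amygdala for neurotensin, the striatum for CART, the locus coeruleus for galanin and the cortex and thalamus for PACAP.

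The promoters of the 4 genes with the widest spread among Top2b-low libraries are shown, since the results turn on them. They run from 250 bases before to 50 bases after the annotated start, are given 5′ to 3′ on the gene's own strand, and come from RefSeq on GRCm38.p6, which is not the mm39 build of the expression table. Capitals mark any match, on either strand, to TATAA, the core of the TATA box, to TGACG, the core of the cAMP response element, to AGGTCA, a nuclear receptor site, or to ACGTG, the core bound by bHLH-PAS factor pairs.
Avp (chr2:130582539-130582838, - strand): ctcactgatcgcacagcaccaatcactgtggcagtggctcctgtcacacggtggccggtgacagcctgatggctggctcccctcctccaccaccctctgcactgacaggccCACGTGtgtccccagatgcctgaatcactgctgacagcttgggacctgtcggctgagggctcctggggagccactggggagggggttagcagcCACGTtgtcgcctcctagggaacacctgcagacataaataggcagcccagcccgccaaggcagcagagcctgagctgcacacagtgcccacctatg
Oxt (chr2:130575919-130576218, + strand): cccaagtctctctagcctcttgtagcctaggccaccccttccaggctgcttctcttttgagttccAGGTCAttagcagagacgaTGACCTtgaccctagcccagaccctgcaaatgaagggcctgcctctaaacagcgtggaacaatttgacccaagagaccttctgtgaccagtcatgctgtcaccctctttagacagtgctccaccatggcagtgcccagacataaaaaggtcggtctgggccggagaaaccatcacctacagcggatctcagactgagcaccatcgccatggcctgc
Hcrt (chr11:100762882-100763181, - strand): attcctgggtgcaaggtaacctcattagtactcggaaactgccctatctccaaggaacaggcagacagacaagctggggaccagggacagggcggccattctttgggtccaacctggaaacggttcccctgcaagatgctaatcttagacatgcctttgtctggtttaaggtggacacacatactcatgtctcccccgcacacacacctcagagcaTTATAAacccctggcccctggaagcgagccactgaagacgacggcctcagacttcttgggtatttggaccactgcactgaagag
Pmch (chr10:88090822-88091121, + strand): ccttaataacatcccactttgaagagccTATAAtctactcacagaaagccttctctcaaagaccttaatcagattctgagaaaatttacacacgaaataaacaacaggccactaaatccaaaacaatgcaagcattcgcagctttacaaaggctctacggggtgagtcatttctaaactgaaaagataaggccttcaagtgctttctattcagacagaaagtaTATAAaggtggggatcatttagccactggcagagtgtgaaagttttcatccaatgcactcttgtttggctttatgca
Promoter sequences were found for 9 of the 10 genes by symbol, Agrp having no entry. Adcyap1 had more than a single entry, and members are counted per gene while the shares are per promoter. TATAA stood in the promoters of 5 of the 9 (Hcrt, Pmch, Trh, Cartpt and Adcyap1), against 24.9% of all 32851 promoters of that length. It began at positions −222 and −27 from the start in Pmch and at −33 in Hcrt, where the match lay on both strands. In Trh it began at −26, in Cartpt at −1 and in Adcyap1 at −58. TGACG stood in 5 of 9 (Trh, Nts, Cartpt, Gal and Adcyap1), against 20.8% of all promoters. AGGTCA stood in Oxt and Trh (16.3% of all promoters), and ACGTG in Avp and Adcyap1 (19.6%). Matches on opposite strands overlapped at 1 place each for ACGTG in Avp and for TGACG in Cartpt. No motif of these was common to the 4 promoters shown.

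Library totals ran from 17237421 to 35246703 reads in Top2b-low mice and from 16963067 to 28629911 in wild type, and a count of 3 reads was worth 1.77 to 3.76 normalised counts. Replicate 3 of each genotype has a library name that begins with N22, and these 2 libraries stood apart in tissue content: the 12 cerebellar markers summed to 5557 normalised counts in Top2b-low replicate 3 and 5849 in WT replicate 3, against 32138 to 40676 in the other 4 libraries. Each genotype held 1 of them, so results are also given for the 4 libraries outside N22 and for the N22 pair. Top2b itself counted 2152, 2314 and 1965 in Top2b-low mice and 3160, 3014 and 2485 in wild type, without overlap. Limma did not call it (adjusted p = 0.99997), nor with the replicate block (0.395), while DESeq2 called it with the replicate block (log2 fold change −0.42, adjusted p = 0.000634), with a term for the N22 libraries (−0.42, 3.4e-05) and in the 4 libraries outside N22 (−0.46, 0.00518).

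All 10 peptide genes had a lower mean in Top2b-low than in wild-type libraries. For all but Adcyap1, whose Top2b-low values were alike, the 2 lowest libraries were Top2b-low replicates 2 and 3. Avp, Oxt, Hcrt and Pmch were at 0.227% to 7.23% of the wild-type mean in those 2 libraries. Trh and Gal were at 12.9% to 23.6% there, and Nts, Cartpt and Adcyap1 at 49.2% to 81.7%. None of these differences passed the test across all genes. Top2b-low replicate 1 was closer to wild type, at 51.0% to 85.4% of the wild-type mean over the 10 genes, with a median of 74.7%. The medians were 10.1% in Top2b-low replicate 2 and 14.5% in replicate 3. In brain tissue, fewer cells of a type and less RNA per cell cannot be told apart.

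**Figure D1:**
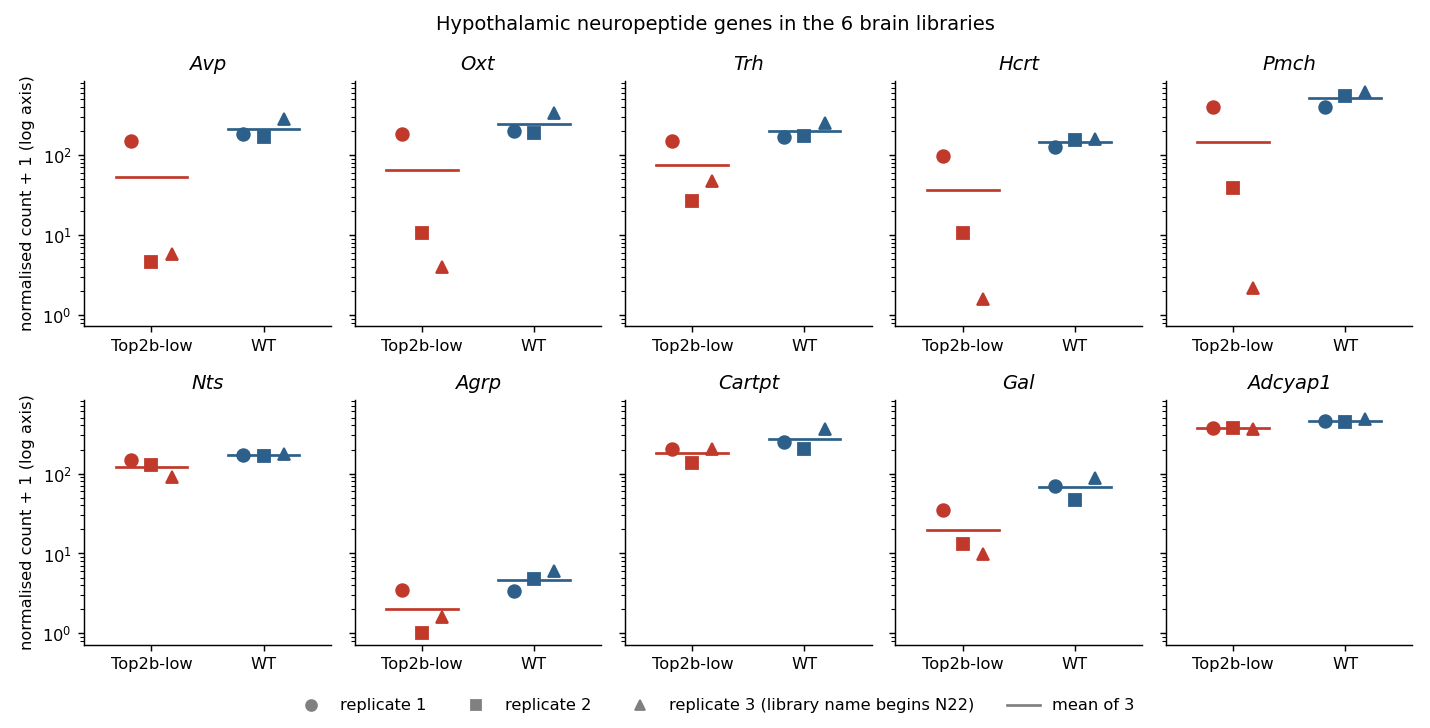
Normalised count plus 1 (log axis) of the 10 peptide genes in each library, Top2b-low left of wild type (WT), with a line at the mean of 3. The Avp, Oxt, Hcrt and Pmch points of Top2b-low replicates 2 and 3 sit far below the other points of the same gene, while the 6 Adcyap1 points lie between 364 and 488.

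In the magnocellular pair, Avp (ENSMUSG00000037727, chromosome 2) counted 148, 3.64 and 4.73 normalised counts in Top2b-low replicates 1 to 3, against 182, 167 and 282 in wild-type replicates 1 to 3. The 2 low values rested on 3 and 8 reads, where the wild-type libraries held 679 reads together. Oxt (ENSMUSG00000027301), the neighbour of Avp on chromosome 2 with no protein-coding gene between them, counted 181, 9.71 and 2.96 in Top2b-low mice and 197, 191 and 340 in wild type. The groups did not overlap for either gene, but the highest Top2b-low value of Oxt lay just under the lowest wild-type value. Relative to the wild-type mean, Avp stood at 1.73% in Top2b-low replicate 2 (95% Poisson interval 0.357% to 5.06%) and 2.25% in replicate 3 (0.972% to 4.44%). Oxt stood at 4.01% (1.73% to 7.89%) and 1.22% (0.396% to 2.85%). These intervals cover the counting error of the Top2b-low library only.

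Trh (ENSMUSG00000005892, chromosome 6), the paraventricular releasing factor for thyrotropin, counted 149, 25.5 and 46.7 in Top2b-low mice and 165, 174 and 255 in wild type. It kept 12.9% of the wild-type mean in Top2b-low replicate 2 (7.97% to 19.7%) and 23.6% in replicate 3 (18.7% to 29.4%), intervals that lie above those of Avp and Oxt in the same libraries.

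In the lateral hypothalamus, Hcrt (ENSMUSG00000045471, chromosome 11), the orexin gene of wakefulness neurons, counted 96.0, 9.71 and 0.592 in Top2b-low mice and 124, 154 and 159 in wild type. Pmch (ENSMUSG00000035383, chromosome 10), whose product promotes feeding and sleep, counted 399.9, 37.6 and 1.18 in Top2b-low mice and 395, 555 and 612 in wild type. For both genes Top2b-low replicate 3 was lower than replicate 2. Although it was the deepest library, it held 1 read of Hcrt and 2 of Pmch, which is 0.406% (0.0103% to 2.26%) and 0.227% (0.0275% to 0.821%) of the wild-type means. Top2b-low replicate 2 held 6.66% (2.88% to 13.1%) and 7.23% (4.91% to 10.3%). The groups did not overlap for Hcrt and did for Pmch, whose Top2b-low replicate 1 exceeded wild-type replicate 1.

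Nts (ENSMUSG00000019890, chromosome 10), also read in lateral hypothalamic neurons, counted 145, 129 and 89.3 in Top2b-low mice and 170, 167 and 174 in wild type. The wild-type values were within 1.04 times of each other and above all 3 Top2b-low values. In Top2b-low replicate 3 it kept 52.5% of the wild-type mean (44.5% to 61.6%), where Hcrt and Pmch had kept under 1%.

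In the arcuate nucleus, Agrp (ENSMUSG00000005705, chromosome 8), the hunger peptide, was too low to compare, with 2, 0 and 1 reads in Top2b-low mice and 2, 3 and 7 in wild type. Cartpt (ENSMUSG00000021647, chromosome 13), which encodes an appetite-suppressing peptide, counted 203, 134 and 199 in Top2b-low mice and 248, 201 and 366 in wild type, and the groups overlapped. Its lowest value was in Top2b-low replicate 2, at 49.2% of the wild-type mean (40.5% to 59.3%).

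Gal (ENSMUSG00000024907, chromosome 19), the galanin gene of preoptic, dorsomedial and arcuate neurons, counted 34.5, 12.1 and 8.87 in Top2b-low mice and 69.2, 45.1 and 88.2 in wild type. In Top2b-low replicate 1 it had the lowest level of the 10 genes relative to the wild-type mean, at 51.0% (33.9% to 73.8%). Adcyap1 (ENSMUSG00000024256, chromosome 17), the PACAP gene of the ventromedial nucleus and many other sites, counted 372, 376 and 364 in Top2b-low mice and 452, 442 and 488 in wild type. It was the most even of the 10 among Top2b-low libraries, whose highest value was 1.03 times the lowest, at 80.7%, 81.7% and 79.0% of the wild-type mean.

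**Figure D2:**
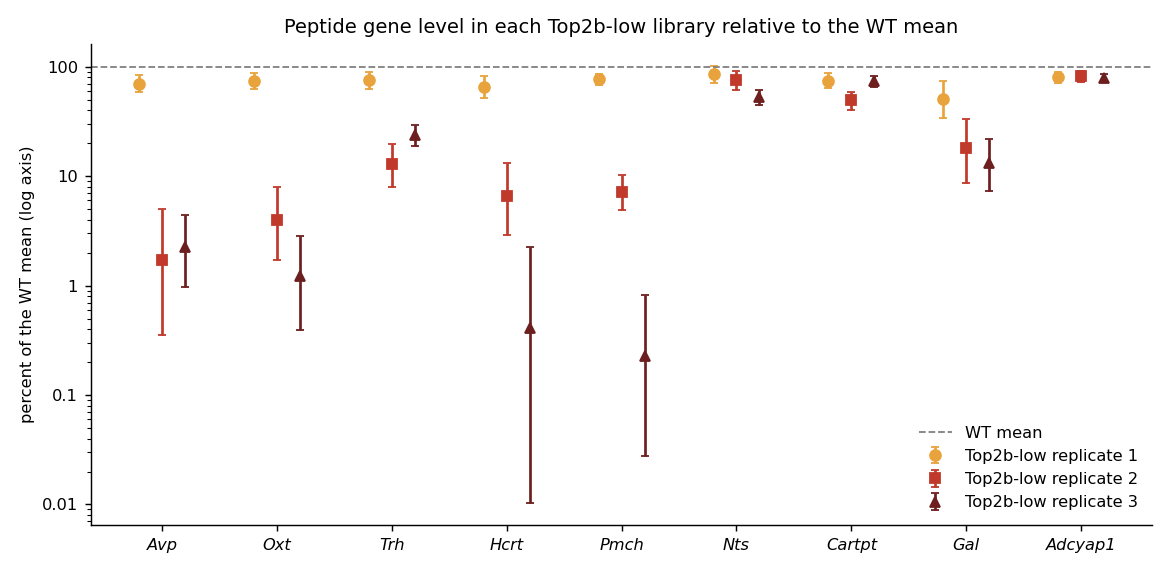
Level of each tested peptide gene in Top2b-low replicates 1, 2 and 3 as a percent of the wild-type (WT) mean (log axis), with 95% Poisson intervals of the reads in that library. Replicate 1 lies between 51.0% and 85.4%, while Avp, Oxt, Hcrt and Pmch lie under 8% in replicates 2 and 3; Agrp, with 0 to 2 reads in these libraries, is left out.

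The low values were set against all tested genes, with limits of 10% and 50% of the lowest wild-type library, which were chosen after the values had been seen. In Top2b-low replicates 2 and 3 alike, Avp, Oxt, Hcrt and Pmch were under 10% of the lowest wild-type value. In Top2b-low replicate 2 that held for these 4 and for no gene but Agrp among the other members (0.0863% of tested genes), and in replicate 3 for these 4 alone (0.109%). Of the 17391 tested genes 5 met the limit in both libraries (0.0288%), and the fifth was Sim1, the transcription factor required for the paraventricular and supraoptic neurons, with 30.8, 1.21 and 1.77 in Top2b-low mice and 24.3, 40.1 and 29.9 in wild type. Under 50% of the lowest wild-type value stood 0 of the 10 peptide genes in Top2b-low replicate 1, 7 in replicate 2 and 7 in replicate 3, where the shares of all tested genes were 0.385%, 0.667% and 0.73%. For 9 of the 10 peptide genes, and 8 of the 9 tested, the 2 lowest of the 6 libraries were Top2b-low replicates 2 and 3, an order found in 5.45% of all tested genes. Adcyap1 was the exception, its replicate 1 being lower than replicate 2. The highest library was wild-type replicate 3 for all 10, against 17.4% of tested genes. Both orders, like the limits, were picked after the values had been seen, so these shares describe the genes and are no test.

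Whether the genes moved in proportion was read from pairs within 1 library, where scaling between libraries plays no part. Avp made up 44.9%, 27.3% and 61.5% of the reads of Avp and Oxt together in Top2b-low replicates 1 to 3, against 48.1%, 46.7% and 45.3% in wild type. The exact binomial 95% intervals of replicates 2 and 3 were wide (6.02% to 61.0% of 11 reads and 31.6% to 86.1% of 13 reads) and held the wild-type shares. Hcrt made up 19.4% and 20.5% of the reads of Hcrt and Pmch in Top2b-low replicates 1 and 2, against 23.9%, 21.7% and 20.6% in wild type. Top2b-low replicate 3 had 3 reads of that pair, too few for a share. A change in either ratio was not detectable at this depth.

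Other pairs had a different ratio in Top2b-low replicates 2 and 3. Trh made up 50.2%, 87.5% (67.6% to 97.3%) and 90.8% (82.7% to 95.9%) of the reads of Trh and Avp in Top2b-low mice, against 47.6%, 51.1% and 47.5% in wild type. Nts made up 26.6%, 77.4% (69.4% to 84.1%) and 98.7% (95.4% to 99.8%) of the reads of Nts and Pmch in Top2b-low mice, against 30.1%, 23.1% and 22.1% in wild type. Gal made up 14.5%, 8.33% (4.07% to 14.8%) and 4.26% (2.40% to 6.93%) of the reads of Gal and Cartpt in Top2b-low mice, against 21.8%, 18.4% and 19.4% in wild type. For Gal, the interval of Top2b-low replicate 2 overlapped those of Top2b-low replicate 1 (9.86% to 20.3%) and wild-type replicate 2 (13.2% to 24.5%). Over all 10 genes, Adcyap1, Cartpt and Nts took 41.6%, 86.7% and 90.9% of the peptide reads in Top2b-low mice and 43.4%, 38.6% and 37.1% in wild type. The 10 genes together took 81.6, 34.9 and 34.4 CPM (reads of the 10 genes scaled by the library total) in Top2b-low mice and 95.1, 98.7 and 136 in wild type.

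**Figure D3:**
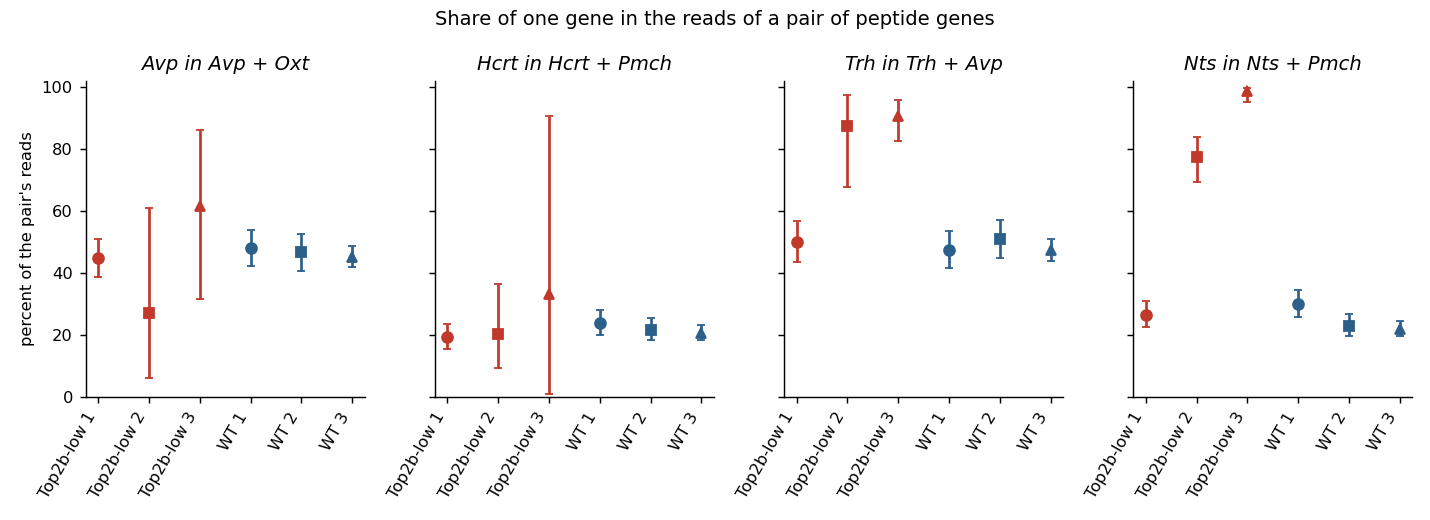
Percent of the reads of a pair of peptide genes that belong to the first gene, by library, Top2b-low left of wild type (WT), with exact binomial 95% intervals. The intervals of the Avp and Hcrt shares in Top2b-low replicates 2 and 3, which rest on 3 to 39 reads, are wide and hold the wild-type shares, while the Trh share is 87.5% and 90.8% and the Nts share 77.4% and 98.7% in Top2b-low replicates 2 and 3.

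Set per kilobase of the longest protein-coding transcript, Pmch had the highest level in wild type, at 695 ± 151 normalised counts per kb (SD, n = 3). Oxt (451 ± 157), Avp (364 ± 108), Hcrt (249 ± 32.7) and Cartpt (219 ± 68.6) followed. Trh (143 ± 35.6), Nts (136 ± 2.74) and Adcyap1 (136 ± 7.07) came after them. Neighbours in this order, down to Adcyap1, differed by less than their SDs together. Gal was at 85.7 ± 27.4 and Agrp at 5.07 ± 1.74, each below the range of the gene before it. The 4 tested genes that were lowest relative to wild type in Top2b-low replicates 2 and 3 were thus those with the highest wild-type levels per kb, and Cartpt ranked next.

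The test over all genes did not call any of the 9 tested members, nor any other gene (0.0% of 17391 lower and 0.0% higher). The log2 fold changes, on the log2(normalised count + 1) scale, were −3.99 for Pmch, −3.70 for Avp, −3.63 for Hcrt, −3.57 for Oxt, −1.99 for Gal, −1.76 for Trh, −0.58 for Cartpt, −0.52 for Nts and −0.31 for Adcyap1. Each had a limma adjusted p of 0.99997. The 95% interval ran from 1.08% to 54.9% of wild type for Avp, from 0.464% to 85.7% for Pmch, from 11.2% to 56.5% for Gal and from 69.6% to 93.3% for Adcyap1. The median over the 9 tested members was −1.99, and −1.88 with Agrp, where the median over all tested genes was −0.0021. By limma, 8 of the 9 were lower at an unadjusted p under 0.05 (all but Cartpt), where 0.995% of tested genes were. All 9 had a negative fold change, as had 50.6% of tested genes. The groups did not overlap for 7 of the 10 (all but Pmch, Agrp and Cartpt), where 3.04% of tested genes were lower and 2.7% higher without overlap. For single genes the two-sided exact permutation test gave p = 0.1 for those 7, the smallest that 3 libraries against 3 allow.

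Gal was the member that a count model called once the libraries were blocked. With a term for the N22 libraries, DESeq2 on the recovered reads gave it a log2 fold change of −1.97 (adjusted p = 0.0309, 0.0805% of tested genes called lower), and with the replicate number as a block −2.06 (adjusted p = 0.0495, 0.0748% called lower). Limma and edgeR did not call it in those designs, and over the alternatives tried its adjusted p ran from 0.0309 to 1. Without Top2b-low replicate 1, which leaves the 2 libraries with the low peptide levels, limma called Avp alone (log2 fold change −5.32, adjusted p = 0.0227, 0.00575% of tested genes). That library decides the call, and over the alternatives the adjusted p of Avp ran from 0.0227 to 1. No other member was called under the alternatives run, and in the 4 libraries outside N22 DESeq2 called no member (0.046% of tested genes lower). On the recovered reads the fold changes of the 4 lowest genes depended on the design. With no block, DESeq2 gave −2.02 for Avp, −1.91 for Oxt, −2.05 for Hcrt and −1.83 for Pmch, and edgeR −2.11, −2.01, −2.15 and −1.90, with adjusted p of 0.99995 to 0.99998. With the replicate block, DESeq2 gave −4.24 for Avp, −3.93 for Oxt, −3.97 for Hcrt and −4.01 for Pmch (adjusted p 0.468 to 0.99995), and edgeR −2.71, −2.62, −2.67 and −2.59 (adjusted p 0.556 to 0.623).

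All 9 tested members had a lower value in the Top2b-low than in the wild-type library of the N22 pair, and a lower mean in the Top2b-low than in the wild-type libraries outside N22. The log2 difference was −8.13 in the N22 pair and −1.91 outside it for Pmch, −6.65 and −2.11 for Hcrt, −6.43 and −2.14 for Oxt, −5.62 and −2.74 for Avp, and −0.42 and −0.26 for Adcyap1. The difference between the 2 sets did not pass limma's interaction test for any member. Pmch had the smallest p (unadjusted 0.00183, adjusted 0.709), and 0.023% of tested genes were called. Among the libraries outside N22 the lowest value was that of Top2b-low replicate 2 for every tested member but Adcyap1. For those members replicate 1 was closer to wild type.

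**Figure D4:**
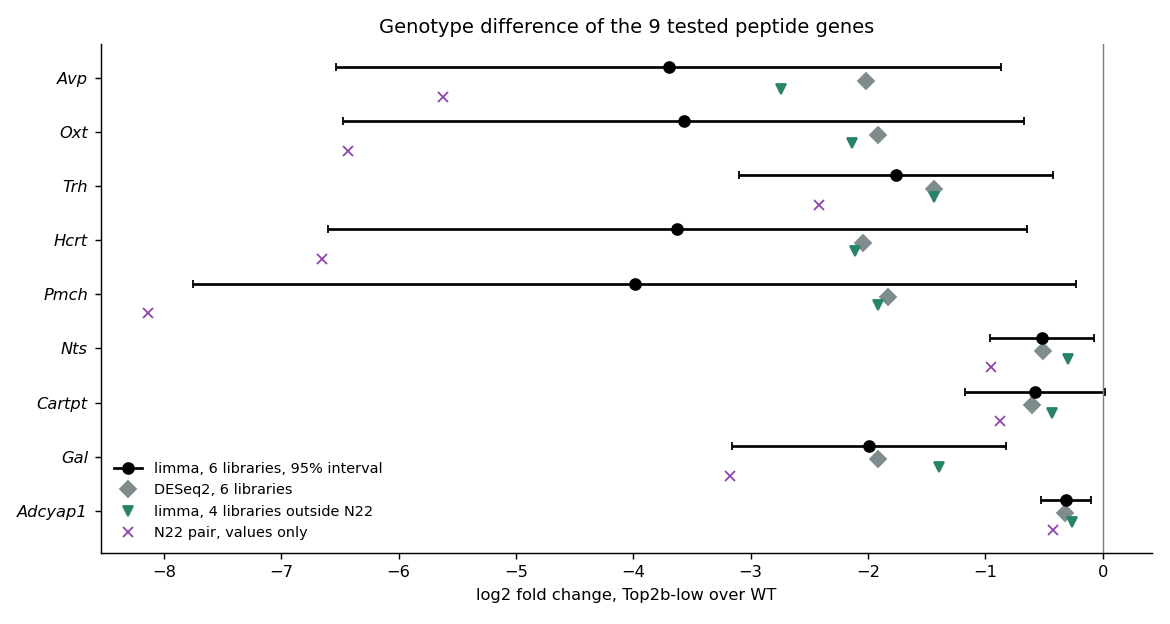
Log2 fold change of Top2b-low over wild type (WT) for the 9 tested peptide genes by limma with its 95% interval, by DESeq2, in the 4 libraries outside N22 and in the N22 pair. All values lie below 0, and limma's interval reaches 0 for Cartpt alone; the N22 pair lies lowest for each gene.

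Of the hypothalamic transcription factors, 5 of 13 tested had Top2b-low replicates 2 and 3 as their 2 lowest libraries (5.45% of all tested genes), and 8 did not. The same order held for 5 of 9 preoptic and septal markers, 6 of 16 receptors and 2 of 5 pituitary markers. It held for 3 of 10 tanycyte and ependymal markers, 3 of 16 precursor cleavage and vesicle genes and 1 of 13 other peptides. Thalamic markers had it in 1 of 10, serotonergic and noradrenergic in 1 of 8, and the remaining lists in 0. Of 20 listed factors 13 were tested, 0 passed the test, 4 were lower and 0 higher at an unadjusted p under 0.05 (0.995% of all tested genes lower), and 3 were lower without overlap (3.04%). Otp, which with Sim1 specifies the neurons that make Avp, Oxt and Trh, counted 55.4, 8.50 and 2.37 in Top2b-low mice and 77.7, 57.7 and 75.4 in wild type. Fezf1 of the ventromedial nucleus counted 16.0, 2.43 and 0 in Top2b-low mice, against 21.9, 20.1 and 33.4 in wild type. Nkx2-1, a regional factor of the ventral hypothalamus and basal forebrain, counted 29.5, 13.4 and 13.0 in Top2b-low mice, against 61.9, 55.1 and 65.4 in wild type. The median over the 13 factors was −0.35. By library, relative to the wild-type mean, it was 0.01 in Top2b-low replicate 2, −1.20 in Top2b-low replicate 3 and −0.03 in wild-type replicate 3. The −1.20 was the value of Nhlh2, which was low in both N22 libraries. Nhlh2 counted 111, 101 and 43.2 in Top2b-low mice and 136, 125 and 59.0 in wild type. Of 9 tested markers of the preoptic area and septum, which share Nkx2-1 with that list, 4 were lower without overlap and 0 passed the test. Among them Gbx1 counted 23.4, 25.5 and 11.8 in Top2b-low mice, against 32.8, 38.9 and 36.3 in wild type, and Ecel1 380, 257 and 187 in Top2b-low mice, against 424, 446 and 612 in wild type.

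Other peptide genes of the hypothalamus, most of them also read in large populations elsewhere, had 0 of 13 tested genes past the test, 0 without overlap and a median log2 fold change of 0.03. Penk, the enkephalin gene abundant in striatum, counted 2856, 2696 and 2965 in Top2b-low mice and 2399, 2415 and 2707 in wild type. Vip, of cortical interneurons and the suprachiasmatic nucleus, averaged 442 ± 119 in Top2b-low mice and 389 ± 89.0 in wild type (SD, n = 3 each). Pomc, of arcuate neurons and the pituitary, counted 139, 12.1 and 23.1 in Top2b-low mice and 69.2, 52.6 and 390 in wild type.

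Of 20 receptors for the peptides 16 were tested, 0 passed, and the list median was −0.16. By limma, 1 was lower at an unadjusted p under 0.05 (0.995% of all tested genes) and 0 higher. That receptor was Galr1, for galanin, which averaged 12.6 ± 7.32 normalised counts in Top2b-low mice and 30.6 ± 11.8 in wild type. Hcrtr2, the orexin receptor of histaminergic neurons, averaged 59.8 ± 13.7 in Top2b-low mice and 96.6 ± 30.9 in wild type (SD, n = 3 each). The melanocortin receptor Mc3r, on which Agrp acts, counted 18.5, 8.50 and 5.92 in Top2b-low mice and 21.9, 20.1 and 16.4 in wild type. Vipr1, a VIP and PACAP receptor, lay on the higher side, at 509 ± 78.9 in Top2b-low mice and 416 ± 45.9 in wild type.

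The 16 genes of precursor cleavage and dense-core vesicles were all tested, with a median log2 fold change of −0.02 and 0 past the test. The groups did not overlap for 3 of them, all lower, where 3.04% of all tested genes were lower without overlap. The convertase Pcsk1 counted 1189, 1182 and 1193 in Top2b-low mice and 1381, 1426 and 1260 in wild type. Qpct, which forms the pyroglutamate end of TRH and neurotensin, counted 235, 225 and 236 in Top2b-low mice, against 275, 279 and 285 in wild type. The granin Scg2 counted 6420, 5479 and 5286 in Top2b-low mice, against 6597, 6659 and 7403 in wild type. No gene of this list was under 50% of the lowest wild-type library in any Top2b-low library.

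Lists for neighbouring tissue were set beside the peptides, and their part in the result was not tested. Pituitary markers varied most, and the 10 of them summed to 1552, 0 and 27.8 normalised counts in Top2b-low replicates 1 to 3 and to 75.3, 25.1 and 18454 in wild-type replicates 1 to 3. All 10 were at 0 in Top2b-low replicate 2, and growth hormone (Gh) counted 1314, 0 and 21.3 in Top2b-low mice, against 68.0, 0 and 14652 in wild type. Beside these sums, peptide reads were 81.6, 34.9 and 34.4 CPM in Top2b-low replicates 1 to 3 and 95.1, 98.7 and 136 in wild-type replicates 1 to 3. Wild-type replicate 3 was highest for the pituitary list and for all 10 peptides. Of 10 tanycyte and ependymal markers, cells that line the ventricles, 9 had a lower mean, where 50.6% of tested genes had a negative fold change. Of these markers 0 passed and 0 were without overlap. Gpr50, of hypothalamic tanycytes, counted 28.3, 3.64 and 6.51 in Top2b-low mice, against 40.1, 37.6 and 26.3 in wild type. The 8 choroid plexus markers summed to 11540 to 14940 in Top2b-low mice and 12854 to 15768 in wild type.

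Markers of other brain regions were set beside the peptides in the same way, and their part was likewise not tested. The 13 hindbrain markers summed to 696, 518 and 14.8 in Top2b-low mice and 1069, 1295 and 42.7 in wild type, with 12 and 11 of them at 0 in the 2 N22 libraries. The 10 serotonergic and noradrenergic markers summed to 849, 1006 and 229 in Top2b-low mice and 1279, 768 and 731 in wild type. The 10 thalamic markers summed to 9025 to 12672 in Top2b-low mice and 10206 to 13262 in wild type, with a median log2 fold change of −0.07. Forebrain excitatory and striatal markers lay on the higher side, with 10 of 10 and 10 of 11 having a higher mean. Of all tested genes, 50.6% had a negative fold change. The list medians were 0.21 and 0.19, and 0 passed the test in either list. Of the striatal markers 3 were higher without overlap, and of the forebrain markers 1, where 2.7% of all tested genes were. At an unadjusted limma p under 0.05, 3 striatal and 0 forebrain markers were higher, where 89 of 17391 tested genes were. The striatal Drd1 counted 775, 730 and 731 in Top2b-low mice and 641, 664 and 649 in wild type. A smaller share of hypothalamic tissue in a sample and less RNA within its neurons cannot be told apart here.

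**Figure D5:**
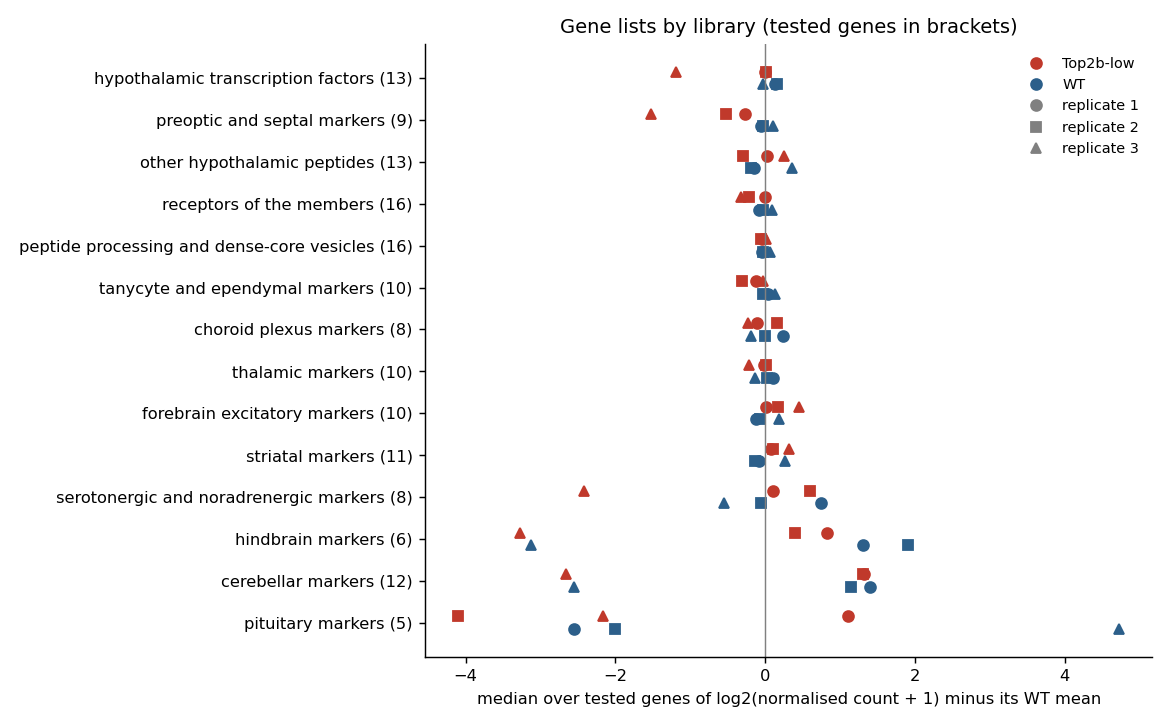
Median over the tested genes of each list of log2(normalised count + 1) minus its wild-type (WT) mean, by library, with Top2b-low above WT in each row and the number of tested genes in brackets. Hypothalamic factors stand at −1.20 in Top2b-low replicate 3, the value of Nhlh2, a gene low in both N22 libraries. Cerebellar and hindbrain lists split by replicate 3 of either genotype, and the pituitary list is highest in WT replicate 3.

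Beyond the members, the genes nearest to the mean profile of the 10 peptides were sought among 13437 named genes with a mean of at least 50. Genes of the lists were included. Nearness was the root mean square difference of log2 deviations over the 6 libraries. The 10 nearest were Gabre, Irs4, Arhgap36, Sytl4, Asb4, Dlk1, Calcr, Gabrq, Gpr101 and Baiap3, at 0.36 to 0.73 log2 units. Gabre, the epsilon subunit of the GABA-A receptor, counted 73.8, 23.1 and 7.69 in Top2b-low mice and 76.5, 73.9 and 81.1 in wild type. Irs4, an insulin receptor substrate, counted 215, 72.8 and 17.7 in Top2b-low mice, against 272, 276 and 286 in wild type. Calcr, the calcitonin receptor, also on the preoptic and septal list, counted 80.0, 25.5 and 2.96 in Top2b-low mice, against 68.0, 51.4 and 94.6 in wild type. Irs4 was among the 3 nearest genes of Avp, Oxt, Hcrt and Pmch, at 1.06 to 1.51, and Sytl4, which acts in granule release, was nearest to Trh (0.47). Adcyap1 was nearest to Cptp (0.03), Cartpt to Gstm6 (0.15) and Nts to Vat1 (0.04). Vat1 counted 709 to 1170 in Top2b-low mice and 1271 to 1377 in wild type.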

How the data were processed

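Bulk RNA-seq of 6 libraries was analysed. The authors deposited 1 table of gene counts divided by a size factor per library (a normalised signal), as the values show. Per the submitters' processing notes, RSEM and mm39 were used; the sources used here do not give versions, aligner, annotation or strand setting. Every value was a whole multiple of the library's smallest value above 0 (100% of values, tolerance 1e-06), so whole reads were recovered; edgeR and DESeq2 on them called 0 genes, as did limma. At an unadjusted p under 0.05, limma had 89 genes higher and 173 lower, edgeR 99 and 151, and DESeq2 46 and 120. Library totals ran from 16963067 to 35246703 reads, and intervals cover counting error only. Symbols and transcript lengths came from GENCODE vM21 (GRCm38).

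Genotypes were compared with limma 3.58.1 (trend, two-sided) in R 4.3.3 on log2(normalised count + 1), pseudocount 1, for genes with a mean of at least 10, with Benjamini-Hochberg adjustment and a threshold of 0.05; the added pseudocount shrinks fold changes where counts are low. Alternatives used edgeR 4.0.16, DESeq2 1.42.0, a term for the N22 libraries, a replicate block, other pseudocounts, filters and scalings, and the omission of libraries. The scripts were tested on simulated data. Same-numbered libraries of the 2 genotypes deviated together, with correlations of 0.33, 0.35 and 0.68, each above 0.1. By the rule used, the replicate number therefore served as a block in alternative fits, while the main fit had no block. The limit was also met with replicates 1 and 2 swapped, by Top2b-low 1 with wild-type 2 (0.24) and Top2b-low 2 with wild-type 1 (0.37). The rule thus does not settle how the libraries outside N22 pair, and the pairing comes from these values alone. No labels say that libraries came from separate litters, and p-values measure the spread between these samples. The series text counts mice per genotype. No 2 libraries of a group agreed within sampling noise (chi-square per degree of freedom 4.27 to 37.4).

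The members and lists were chosen with earlier results of these data known. Named are the members, Top2b, up to 4 genes of each list with the smallest unadjusted p, and the genes nearest to the members' profiles. Sim1 and Gh also fall under this rule, and Nhlh2 is named as the gene at a list median.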

Additional observations from a re-analysis of the deposited data

How the results depend on the processing

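The 9 tested members kept a negative fold change under each of the alternatives run, 215 values in all, of which 212 stayed on the same side of the threshold. The other 3 were Avp without Top2b-low replicate 1, and Gal in DESeq2 with the N22 term and with the replicate block. Genes called over the whole table were 1 higher and 14 lower in DESeq2 with the N22 term, 2 higher and 13 lower in DESeq2 with the replicate block, and 0 higher and 8 lower in DESeq2 in the 4 libraries outside N22. Leaving out single replicates gave 0 to 1 lower and 0 higher. The replicate block changed no other call among the members, and in limma it cannot move the median of −1.99, since each block holds 1 library of each genotype. That median was −1.02 in the 4 libraries outside N22 with edgeR and with DESeq2, −3.18 in the N22 pair, and −2.54 to −1.63 when single replicates were left out; the cause was not tested. The interaction test called 4 genes, 2 with a pseudocount of 5 and 9 with a filter at a mean of 50. The count of members without overlap stayed at 7 outside N22, where 3133 of 17391 tested genes then had no overlap, and was 7 to 10 without single replicates, where 5.34% to 12.2% of tested genes had none; these 2 settings and the scaling to library totals (7, with 3.6% of tested genes) were chosen after seeing the data. Depth limits Agrp, and the Avp, Oxt, Hcrt and Pmch levels of Top2b-low replicates 2 and 3, which rest on 1 to 31 reads.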

Other observations

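Of the listed hypothalamic factors and peptides, 19 lay under the filter of 10 normalised counts and were not tested. Top2b-low replicates 2 and 3 were both below all wild-type libraries for 11 of them and not for the other 8, at levels of few reads. Among tested genes 7.0% had that order, and the share among genes under the filter was not computed. The 3 given here are among the 11 and were chosen after their values were seen. Nr5a1, the defining factor of the ventromedial nucleus, counted 3.69, 0 and 0.592 normalised counts in Top2b-low mice and 8.50, 8.77 and 19.2 in wild type. Six6, of the suprachiasmatic nucleus and pituitary, counted 2.46, 0 and 1.18 in Top2b-low mice, against 4.86, 7.52 and 32.7 in wild type. Ghrh, the growth hormone releasing factor of the arcuate nucleus, counted 6.15, 1.21 and 0.592 in Top2b-low mice, against 9.72, 6.27 and 7.11 in wild type.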
